A study of Mus musculus with 39 samples.

Results

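The genes described here encode enzymes that build nucleotides from small precursors. They are Ppat, Gart, Pfas and Paics of the purine route, Impdh1 and Impdh2 of the guanine branch, and Cad, Dhodh and Umps of the pyrimidine route. They were taken by name, and every probe set (the group of short probes that reads 1 transcript) whose annotation names only that gene was kept. Of the 9 genes listed, 8 were measured, by 21 of the 45101 probe sets. No probe set names Impdh2 alone, and that gene is not analysed here. The level of a gene is that of its probe set with the highest mean, on the log2 scale, among 18195 genes treated in the same way. The samples are 39 lymphomas of mice that carry the Eµ-myc transgene, in which the immunoglobulin heavy chain enhancer drives Myc in B lineage cells, with 1 array each. The series calls them a training set, all have the same labels, and no untreated, normal or second group belongs to it. The labels give neither age nor strain, nor do they say that each tumour came from its own mouse. The tests treat the tumours as independent samples, which could not be checked, and the p-values refer to these samples only. The questions addressed here are how far each enzyme's transcript varied among the tumours, and whether it followed Myc itself or the genes of dividing cells.

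Cells make purines step by step on a phosphoribosyl sugar until inosine monophosphate is complete, and then turn it into adenine or guanine nucleotides. Pyrimidines are made the other way round: the ring is closed first and the sugar is added late. Both routes use glutamine and aspartate, supply RNA and DNA, and are run hard by dividing lymphoid cells. MYC is a transcription factor that binds the E-box CACGTG, and the gene for CAD and several purine enzymes are textbook targets of it.

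The arrays were alike in overall signal, with medians between 5.61 and 5.78 log2, and the mean correlation of an array with the others lay between 0.912 and 0.973. The pan B cell score, the mean of 13 marker levels each centred on 0 over the tumours, reached from -2.96 to 0.90. B cell transcripts were therefore scarce in some tumours. Pou2af1, a B cell coactivator, fell to 3.10 in tumour 6, and Cd79a, part of the B cell receptor, to 3.95 in the same tumour. In tumours 2, 5, 6, 8, 19, 23 and 26 Myc lay under 10 log2 or the pan B cell score was under -1. The fits are also given for the 32 tumours without those, which keep tumour 1. Tumours 2, 6 and 8 were the 3 whose arrays were least like the others. Tissue was homogenised whole, so fewer cells of a type and less RNA per cell cannot be told apart in any value below.

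Ppat encodes the amidotransferase that takes the first committed step of the purine route. Its level was 10.41 ± 0.61 log2 (SD, n = 39), with 8.19 in tumour 2 as the lowest, a median of 10.58 and 11.16 in tumour 4 as the highest. Tumours 8, 6, 1 and 23 followed tumour 2 from below, at 9.02, 9.17, 9.23 and 9.76, and the next tumour stood at 10.21. The spread was therefore made mostly by 5 tumours under a compact upper group. Gart encodes a protein with 3 enzyme activities of the same route. It was at 10.74 ± 0.50 (SD, n = 39), from 8.35 in tumour 2 over a median of 10.89 to 11.22 in tumour 34. Pfas, which makes formylglycinamidine ribonucleotide with glutamine as the nitrogen donor, was at 10.29 ± 0.60 (SD, n = 39), from 8.01 in tumour 2 over a median of 10.49 to 10.85 in tumour 16. For Pfas the same 5 tumours lay lowest, with 8.86, 8.97, 9.48 and 9.72 in tumours 8, 6, 1 and 23, against 9.88 in the next. Paics carries the carboxylation step and the one after it. It was at 12.51 ± 0.31 log2 (SD, n = 39), from 11.17 in tumour 2 over a median of 12.53 to 13.08 in tumour 21. Paics varied the least of the purine genes: highest over lowest was 3.74-fold, against 7.87-fold for Ppat, 7.28-fold for Gart and 7.18-fold for Pfas.

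Ppat and Paics stand head to head on chromosome 5 and are read in opposite directions from a shared stretch. In RefSeq (GRCm38.p6) their gene models overlap by 277 bases, which is why their promoter windows are shown here beside the expression values. RefSeq gave promoter windows for 6 of the 8 measured genes, 7 windows in all, each from 250 bases before to 50 bases after a transcription start. Both strands were searched for the E-box CACGTG, which reads the same on both strands, and for the E2F-type motifs TTCCCGC and TTGGCGC, none of which overlaps another. The E-box was found once in these windows, in that of Paics on the plus strand, 203 bases before its start, and TTCCCGC was found 3 times in that of Ppat on the minus strand, at 211, 158 and 50 bases before its start. The first pair of these matches lies on the strand opposite to Ppat and reads as the reverse complement, GCGGGAA, in the lines below. Capitals mark the motif, and each line is written 5′ to 3′ on the strand of its gene.
Paics, chr5:76951087-76951116, plus strand: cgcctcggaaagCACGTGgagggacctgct
Ppat, chr5:76951771-76951800, minus strand: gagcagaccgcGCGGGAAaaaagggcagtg
Ppat, chr5:76951718-76951747, minus strand: aggatcagaggGCGGGAAagggaggtgcaa
Ppat, chr5:76951610-76951639, minus strand: tgtccccaggcTTCCCGCcgcgcaggcgcg
The E-box was in 1 of the 7 windows, against 7.15% of all 32851 promoter windows, and TTCCCGC in 1 of 7, against 4.6%. TTGGCGC was in 0 of the 7 windows and in 2.45% of all. The levels of this neighbouring pair were related over the 35 tumours that form the larger cluster of Ppat levels, with Pearson r = 0.489 (permutation adjusted p = 0.0066) and Spearman rho = 0.494 (permutation adjusted p = 0.014), and r was 0.502 without the 2 tumours farthest from the median. This was no closer than other pairs within their larger clusters: the median r of the 21 pairs without Impdh1 was also 0.489. Ppat gave 0.667 with Cad over 34 tumours and 0.522 with Dhodh over 35, which are not its neighbours. Over all 39 tumours Ppat gave 0.807 with Paics, 0.927 with Cad and 0.795 with Dhodh.

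Impdh1 encodes an inosine monophosphate dehydrogenase, the enzyme that turns the purine route towards guanine. Its level was 7.78 ± 0.32 log2 (SD, n = 39), with 7.24 in tumour 12 as the lowest, a median of 7.78 and 8.51 in tumour 39 as the highest, a range of 2.42-fold. Tumour 2, the lowest tumour of every other measured gene, had 7.26 and was second lowest. Tumours 6 and 8, which were among the lowest in Ppat, Pfas and Cad, stood at 8.28 and 8.22, which is 37th and 35th from the lowest of 39. Impdh1 thus did not share the low values of the purine genes in that pair of tumours.

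Cad encodes the large protein that joins the opening steps of pyrimidine synthesis. It was at 10.60 ± 0.65 log2 (SD, n = 39), with 8.34 in tumour 2 as the lowest, a median of 10.83 and 11.31 in tumour 9 as the highest. Its 5 lowest tumours were those of Ppat and Pfas: tumours 8, 6, 23 and 1 followed tumour 2 with 9.00, 9.12, 9.45 and 9.80, and the next stood at 10.17. Dhodh encodes dihydroorotate dehydrogenase, which sits in the inner mitochondrial membrane and hands its electrons to the respiratory chain. Its level was 8.95 ± 0.51 (SD, n = 39), from 7.31 in tumour 2 over a median of 9.06 to 9.70 in tumour 16. Here tumour 1 was second lowest with 7.61, tumour 8 followed with 8.19, and tumours 6 and 23, with 8.60 and 8.55, lay above the lowest of the remaining tumours, tumour 18 with 8.20. Umps encodes the enzyme that adds the sugar and finishes uridine monophosphate. It was at 10.00 ± 0.54 (SD, n = 39), from 8.12 in tumour 2 over a median of 10.09 to 10.79 in tumour 34. Tumours 1, 8 and 6 had 8.72, 8.82 and 9.11, whereas tumour 23 had 10.07 for Umps and lay among the others. Highest over lowest was 7.86-fold for Cad, 6.36-fold for Umps and 5.23-fold for Dhodh.

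**Figure D1:**
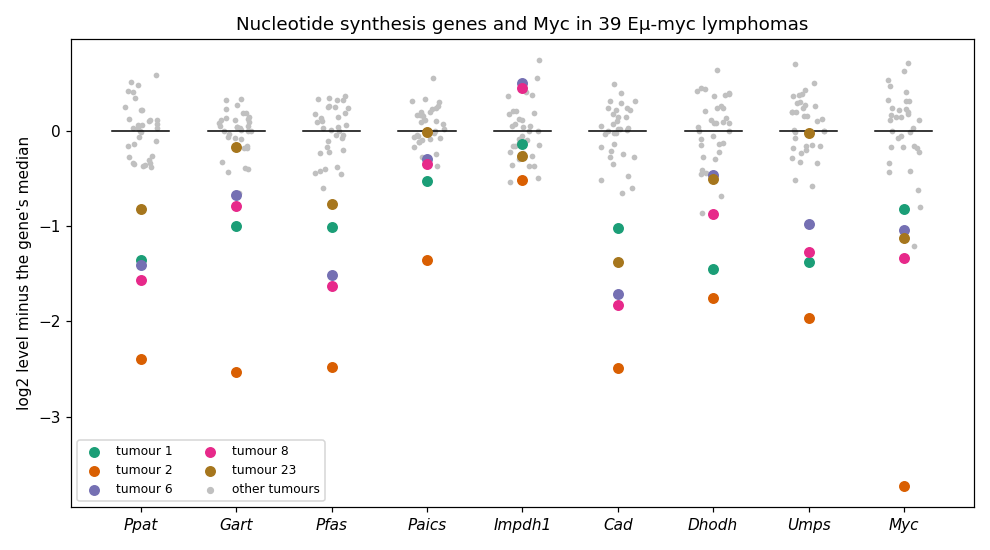
Levels of the 8 measured genes and Myc in each of 39 tumours, as log2 level minus the gene's median, with 1 point per tumour and tumours 1, 2, 6, 8 and 23 coloured. Tumour 2 is the lowest in every column but that of Impdh1, where tumours 6 and 8 sit near the top.

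The median SD of the 8 genes was 0.52 log2, against 0.32 over all genes. Cad varied more than 81.7% of all genes, Ppat more than 79.6% and Pfas more than 79.1%, while Paics and Impdh1 were near the middle, above 48.2% and 49.3%. Further probe sets of the same gene mostly correlated with the one used, by Pearson r, and ranks of the tumours were not compared. The second probe set of Cad correlated at r = 0.976 with the one used, that of Dhodh at 0.953, the bright second set of Ppat at 0.886 and the one of Paics nearest in brightness at 0.942, while the 3 other sets of Gart lay between 0.80 and 0.904 (all over 39 tumours). Umps had 2 that followed at 0.93 and 0.909. Disagreement was limited to 3 dim sets, with r = 0.439 for Cad, 0.369 for Ppat and -0.03 for Umps, and to another set of Paics with r = 0.392. That set of Paics was bright, with a mean of 10.70 log2, above 94.8% of all probe sets. It was lowest in tumour 30, and its r with Myc was 0.335. Impdh1 and Pfas had 1 probe set each, and so did Myc, so no second probe set checks the Myc level.

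Myc was under its median in each of tumours 1, 2, 6, 8 and 23, the lowest of Ppat, Pfas and Cad, and the macrophage score above its median. Myc was at 11.73 ± 0.77 log2 (SD, n = 39), with a median of 11.92 and 12.63 in tumour 10 as the highest. Tumour 2 had the lowest Myc level, 8.19, which is 13.2-fold under the median, and in the same tumour Gart was 5.79-fold, Cad 5.63-fold, Pfas 5.57-fold, Ppat 5.27-fold and Impdh1 1.43-fold under theirs. Tumours 1, 6, 8 and 23 had Myc levels of 11.10, 10.88, 10.58 and 10.80. The score of 13 macrophage markers was 0.70, 1.31, 1.87, 1.25 and 1.39 in tumours 1, 2, 6, 8 and 23, against -1.18 to 0.92 in the 34 others. From 9 to 11 of the 13 macrophage markers were above their median in each of these 5 tumours. The fibroblast score was 1.02 and 1.18 in tumours 6 and 8, above all 34 others, with 12 of 12 markers over their median in both. The adipocyte score was 1.5, 3.72 and 2.01 in tumours 2, 6 and 8, with 6 of 6 markers over their median in each, and that of tumour 6 was the highest of the 39. The T cell score of 10 markers was highest of all in tumour 2, at 2.89, and lay at -0.97, -1.15 and -0.71 in tumours 6, 8 and 23. The pan B cell score was 0.21 in tumour 1 and 0.39 in tumour 2 but -2.89, -2.92 and -2.96 in tumours 6, 8 and 23. The part that other cells had in the low values was examined only through fits with covariates, which hold no adipocyte score.

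To relate the genes to Myc, limma was fitted to every gene with the Myc level divided by its SD of 0.77, so that a slope is the log2 change of a gene per SD of Myc. Over the 39 tumours 7 of the 8 genes rose with Myc, where 18.7% of all 18194 genes tested rose. Cad had the steepest slope, 0.56 ± 0.05 (SE, limma adjusted p = 1.2e-10), followed by Ppat with 0.50 ± 0.06 (3.9e-09) and Pfas with 0.48 ± 0.06 (1.7e-08). Gart and Dhodh had 0.42 each (SE 0.04 and 0.05), Umps 0.37 ± 0.06 and Paics 0.22 ± 0.04, with limma adjusted p-values up to 9.1e-06. The slope of Impdh1 was 0.07 ± 0.05 (limma adjusted p = 0.32). The median slope of the 8 genes was 0.42, against 0.01 over all genes.

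The size of these slopes depended on a few tumours. In the 32 tumours left without those poor in B cell or Myc transcripts, 4 of the 8 genes rose with Myc, against 5.42% of all genes. Tumour 1, second lowest of the 39 in Dhodh (7.61) and Umps (8.72), is among the 32. Dhodh then had the steepest slope, 0.55 ± 0.10 (SE, limma adjusted p = 0.00037), ahead of Cad with 0.38 ± 0.08 (0.0013), Ppat with 0.32 ± 0.10 (0.036) and Gart with 0.28 ± 0.07 (0.011). Pfas had 0.20 (limma adjusted p = 0.16), Umps 0.21 (0.27), Paics 0.08 (0.50) and Impdh1 0.08 (0.63). The slope of Paics over the other tumours was 0.12 when tumour 2 alone was left out (limma adjusted p = 0.082). With scores of other cells as covariates (macrophage, T cell, fibroblast and erythroid), 7 of 8 again rose with Myc over the 39 tumours, against 7.62% of all genes.

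**Figure D2:**
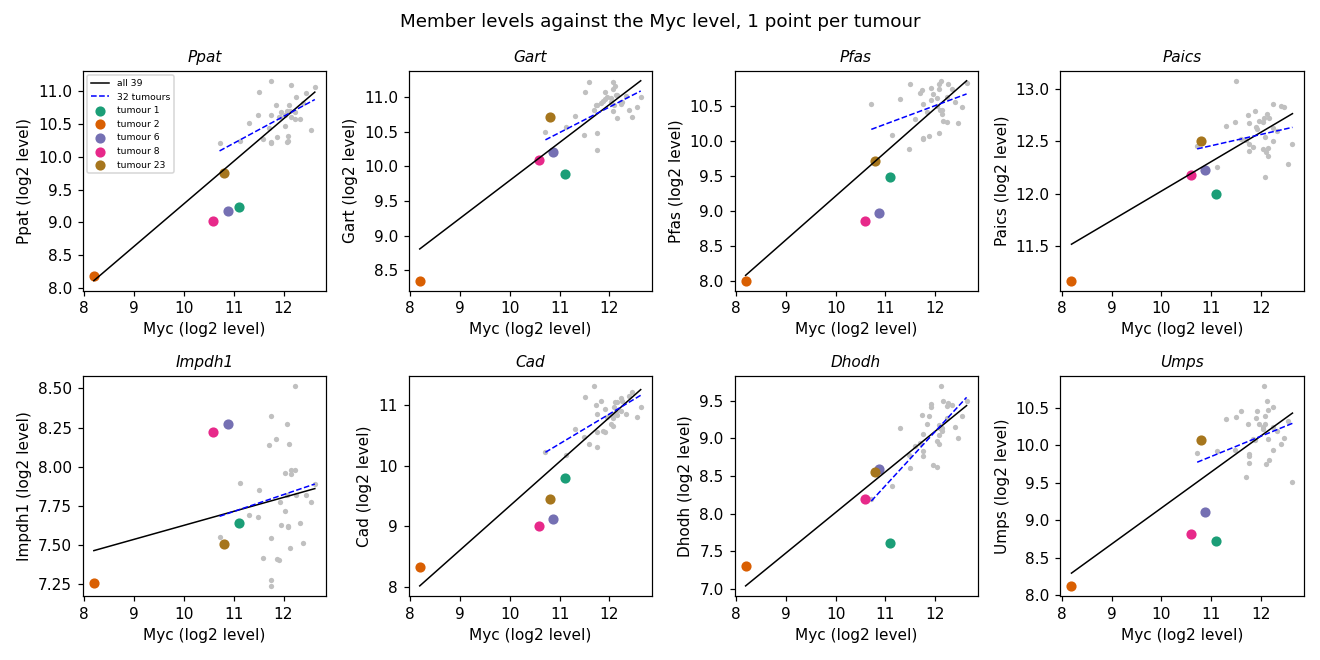
Level of each of the 8 genes against the Myc level, both in log2, with 1 point per tumour. The black line is the fit over 39 tumours. The dashed blue line is that over the 32 tumours left without those poor in B cell or Myc transcripts. The lines nearly coincide in slope for Impdh1, both almost flat. The blue line is steeper than the black for Dhodh and flatter for Pfas, Umps and Paics.

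Correlations were taken within the larger cluster wherever the levels of a gene or score fell into separate clusters. The r values therefore cover different tumours, and those over 39 include tumour 2, the lowest in Myc. Over all 39 tumours r with Myc was 0.865 for Cad, 0.848 for Gart, 0.8245 for Ppat and 0.819 for Dhodh. It was 0.804 for Pfas, 0.695 for Paics, 0.690 for Umps and 0.217 for Impdh1. Dhodh, whose levels formed 1 cluster, gave r = 0.819 and rho = 0.727 with Myc over 39 tumours (permutation adjusted p = 0.00015 and 0.00051), and r was 0.721 without tumours 2 and 8, the farthest from the median. Gart gave r = 0.848 and rho = 0.482 (0.00015 and 0.015), with r = 0.559 without the same pair. Of all genes, 17.6% had a positive r with Myc at this threshold over 39 tumours. Paics gave r = 0.695 (permutation adjusted p = 0.0031), but its rho was 0.296 (0.18) and r without tumours 2 and 8 was 0.269, so its relation rested on those tumours. Cad gave r = 0.607 over 34 tumours (permutation adjusted p = 0.0081), with rho = 0.486 (0.071) and r = 0.408 without the 2 farthest. Ppat gave r = 0.517 over 35 tumours (0.021), with rho = 0.424 (0.10), and Pfas r = 0.469 over 36 tumours (0.029), with rho = 0.324 (0.21). Without the 2 farthest tumours r was 0.319 for Ppat and 0.453 for Pfas. Umps gave r = 0.0973 over 35 tumours (0.76): once tumours 1, 2, 6 and 8 were set aside, no relation with Myc was detectable. Impdh1 gave r = 0.217 over 39 tumours (0.32).

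Whether genes differed in how they followed Myc was tested directly, on the difference between the levels of each pair of genes. With 8 genes there were 28 pairs, and 14 differed at an adjusted p under 0.05 (permutation tests, Benjamini-Hochberg over the 28). All 7 pairs with Impdh1 differed, from 0.15 ± 0.06 for Paics minus Impdh1 (SE, permutation adjusted p = 0.035) to -0.49 ± 0.07 for Impdh1 minus Cad (7e-05, from the smallest p that the draws can give). Paics was also flatter than each of the 6 others, for example by -0.35 ± 0.05 against Cad (7e-05) and -0.16 against Umps (0.018). The difference of Paics and Impdh1 was small and rested on few tumours: it did not pass without tumour 2, 6, 8 or 14 (permutation adjusted p = 0.31, 0.074, 0.10 and 0.059), its rank correlation with Myc was 0.0984 (unadjusted permutation p = 0.55), and it was -0.00043 in the 32 tumours. The remaining difference was between members of the pyrimidine route, Cad minus Umps, at 0.19 ± 0.07 (0.024). In the 32 tumours 10 pairs differed. Of the 14 pairs above, 8 no longer passed there, among them 5 with Impdh1 and Cad minus Umps at 0.17 (permutation adjusted p = 0.34), while Dhodh minus Umps passed at 0.35 (0.022). Dhodh was then steeper than 3 purine genes that it had not exceeded over 39 tumours: the differences were -0.24 for Ppat minus Dhodh (permutation adjusted p = 0.047), -0.27 for Gart minus Dhodh (0.020) and -0.35 for Pfas minus Dhodh (0.0097).

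Proliferation was read from 2 scores that hold none of the nucleotide genes: 24 genes of mitosis, called the G2/M score, and 25 genes of DNA replication, called the S phase score. Both were lowest in tumour 2, at -2.42 and -2.01, and highest in tumour 20, at 0.61 and 0.46. Their slopes are given per SD, 0.61 for G2/M and 0.56 for S phase. Over the 39 tumours 7 of the 8 genes rose with the G2/M score, where 19.8% of all genes rose, and 7 of 8 with the S phase score, where 19.5% rose. Along S phase Cad had a slope of 0.59, Pfas 0.57 ± 0.03 (SE, limma adjusted p = 4.3e-18), Ppat 0.54, Umps 0.46, Gart 0.41, Dhodh 0.37 and Paics 0.23. Along G2/M the order was the same, and the slopes ran from 0.59 for Cad down to 0.22 for Paics. Impdh1 had 0.05 along both scores (limma adjusted p = 0.54 for each).

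Umps, whose slope along Myc did not pass in the smaller set of tumours, passed along both proliferation scores there. In the 32 tumours its slope was 0.72 ± 0.09 along S phase (SE, limma adjusted p = 2.4e-06) and 0.58 ± 0.11 along G2/M (0.00016), the steepest and the second steepest of the 8 genes. Tumour 1, among the 32, lay far below the others in both scores, so it weighs on these slopes. Its G2/M score was -1.0048, against -0.2034 in tumour 12, the next lowest. Its S phase score was -0.7962, against -0.2764 in tumour 32. Its Umps level was 8.72, against 9.51 in tumour 10. No fit of the 32 without tumour 1 is given. Over the 35 tumours without tumours 1, 2, 6 and 8, Umps gave r = 0.491 with S phase (permutation adjusted p = 0.020) and 0.354 with G2/M (0.13). Along S phase 7 of 8 genes rose in the 32 tumours, against 11.7% of all genes, and along G2/M 6 of 8, against 13.0%. Paics had 0.29 along S phase (limma adjusted p = 0.0060) and 0.18 along G2/M (0.093). Impdh1 had 0.26 along S phase (0.092) and 0.18 along G2/M (0.25). Without only tumours 2, 6 and 8 all 8 genes rose with S phase, Impdh1 with a slope of 0.28 ± 0.09 (SE, limma adjusted p = 0.019), against 14.8% of all genes. With the other-cell scores as covariates, 7 of 8 rose along S phase (10.5% of all genes) and 7 of 8 along G2/M (9.94%), and Impdh1 had -0.16 along both (limma adjusted p = 0.10 for each), so the sign of its slope depended on which tumours and covariates entered.

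**Figure D3:**
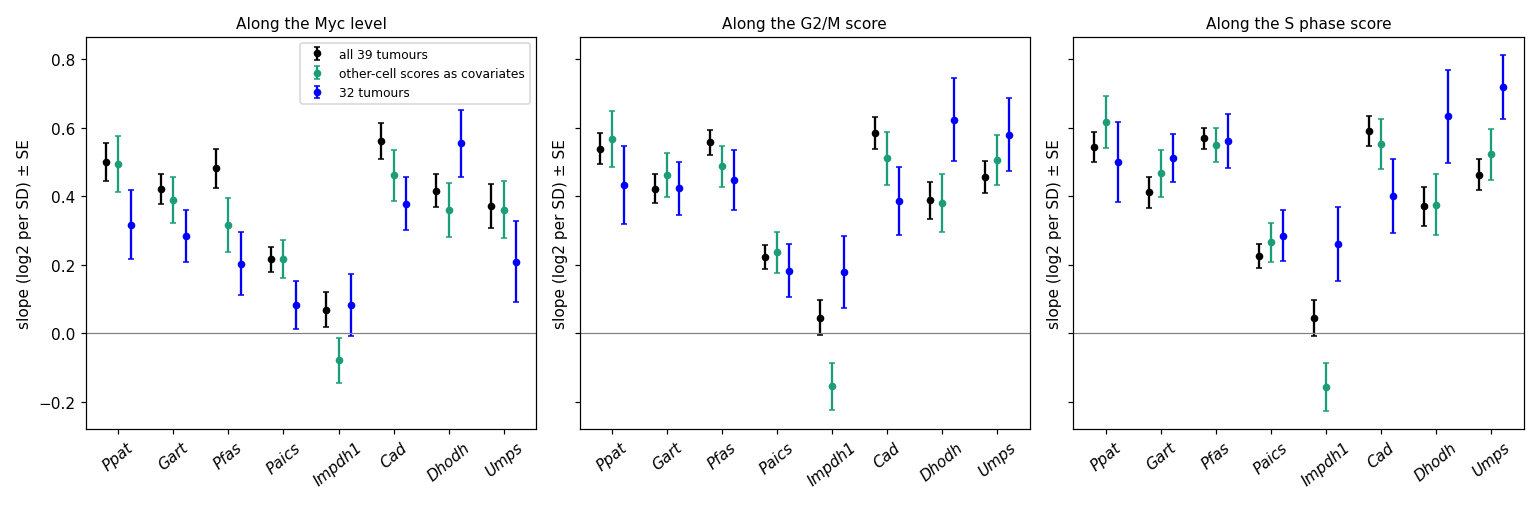
Slope of each gene along the Myc level, the G2/M score and the S phase score, in log2 per SD of the measure, as points with bars of 1 SE. Black stands for 39 tumours, green for 39 tumours with other-cell scores as covariates and blue for the 32 tumours: along Myc, Dhodh lies highest in blue and Cad in black, and Umps lies highest in blue along S phase.

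Correlations with the scores were taken within the 35 tumours of the larger cluster, without tumours 1, 2, 6 and 8. Pfas gave r = 0.781 and rho = 0.685 with the S phase score (permutation adjusted p = 0.00052 and 0.0015), and r was 0.665 without the 2 farthest tumours. Umps gave r = 0.491 and rho = 0.633 (0.020 and 0.0020), and Impdh1 r = 0.527 and rho = 0.563 (0.012 and 0.012). For both genes r was higher without the 2 farthest tumours, 0.608 for Umps and 0.600 for Impdh1. Of all genes, 10.3% had a positive r with S phase at this threshold over 35 tumours. Ppat gave r = 0.532 (permutation adjusted p = 0.010) and Gart 0.472 (0.034), with rho of 0.445 (0.062) and 0.457 (0.054). Dhodh gave r = 0.433 (0.052), Cad 0.374 over 34 tumours (0.13) and Paics 0.262 (0.32). With the G2/M score Pfas gave r = 0.643 and rho = 0.541 (permutation adjusted p = 0.0013 and 0.015), where 11.2% of all genes had a positive r at this threshold. Dhodh gave r = 0.473 (0.029) and Impdh1 r = 0.443 (0.043), but neither passed by rho, 0.432 (0.070) and 0.459 (0.051). Ppat gave r = 0.426 (0.057), Gart 0.368 (0.11), Umps 0.354 (0.13), Cad 0.373 over 34 tumours (0.14) and Paics 0.0470 (0.89), none past the threshold. Impdh1, whose slope did not pass over 39 tumours, thus rose with replication genes in the 35.

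Myc and the G2/M score moved together, with r = 0.537 and rho = 0.471 over 35 tumours (permutation adjusted p = 0.0025 and 0.010 over 2 relations), and r = 0.342 without the 2 farthest. With the S phase score Myc gave r = 0.440 over 35 tumours (permutation adjusted p = 0.010). By rho that relation did not pass, at 0.283 (0.10), and r was 0.251 without the 2 farthest. Each gene was also fitted on the Myc level and the G2/M score at once, over the 39 tumours unless stated. Over those 39, Myc itself rose by 0.65 ± 0.07 log2 per SD of the G2/M score (SE, limma adjusted p = 1.4e-10), where the SD of Myc was 0.77. The Myc level and the score were thus closely tied there, and the joint fit separates their slopes with limited precision. Given the G2/M score, Dhodh alone of the 8 rose with Myc, by 0.31 ± 0.09 per SD (SE, limma adjusted p = 0.039), where 1.89% of all genes rose. Cad had 0.23 ± 0.08 (0.077), Gart 0.22 ± 0.07 (0.067), Ppat 0.16 (0.26), Impdh1 0.10 (0.55), Paics 0.10 (0.39), Pfas 0.04 (0.79) and Umps -0.05 (0.78). Given Myc, 5 of the 8 rose with the G2/M score, where 10.2% of all genes rose: Pfas by 0.53 ± 0.07 (4.1e-07), Umps by 0.50 ± 0.09 (8.4e-05), Ppat by 0.41 ± 0.08 (0.00051), Cad by 0.39 ± 0.08 (0.00043) and Gart by 0.23 ± 0.07 (0.018). Paics had 0.14 (0.12), Dhodh 0.13 (0.33) and Impdh1 -0.04 (0.80). Of the 8, 4 rose with G2/M given Myc in the 32 tumours, against 9.01% of all genes: Umps by 0.60 (limma adjusted p = 0.0011), Pfas by 0.43 (0.0039), Gart by 0.34 (0.0058) and Dhodh by 0.40 (0.019). Within the larger cluster of 35 tumours, without tumours 1, 2, 6 and 8, Pfas alone passed, at 0.47 (limma adjusted p = 0.012), against 6.73% of all genes. There Umps had 0.32 (0.17), Cad 0.28 (0.17), Ppat 0.17 (0.54), Gart 0.12 (0.60) and Dhodh 0.12 (0.67).

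Dhodh and Umps, which take neighbouring steps of the pyrimidine route, differed from each other in this joint fit. Dhodh minus Umps was 0.36 ± 0.11 along Myc given G2/M (SE, permutation adjusted p = 0.035 over 28 pairs) and -0.37 ± 0.11 along G2/M given Myc (0.0045). It was 1 of 2 pairs that differed along Myc given G2/M, and 1 of 14 along G2/M given Myc. Gart minus Umps was the other of the 2, at 0.27 ± 0.08 (0.033), with -0.26 ± 0.08 along G2/M given Myc (0.0040). Along Myc given G2/M Dhodh did not differ from Gart or Cad (permutation adjusted p = 0.57 and 0.62). In the 32 tumours Dhodh minus Umps was 0.43 ± 0.13 along Myc given G2/M (0.027), 1 of 5 pairs that differed. Along G2/M given Myc it was -0.21 there and did not pass (permutation adjusted p = 0.40). Paics minus Umps was the 1 pair of 28 that differed along G2/M given Myc in the 32, by -0.43 (0.046). Dhodh and Cad both rose with Myc given G2/M there, by 0.39 ± 0.10 (limma adjusted p = 0.018) and 0.29 ± 0.08 (0.045), against 1.13% of all genes. Over 39 tumours the call of Dhodh was lost when tumour 6, 18, 27 or 36 was left out (limma adjusted p = 0.11, 0.14, 0.097 and 0.059), with slopes from 0.26 to 0.38 over all tumours left out in turn. With the other-cell scores as covariates 0 of the 8 genes and 0.0% of all genes passed for Myc given G2/M in limma, and 1 of the 8 and 1590 of all had an unadjusted p under 0.05. In that fit 3 of the 8, Pfas, Umps and Gart, rose with G2/M given Myc, against 2.59% of all genes.

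**Figure D4:**
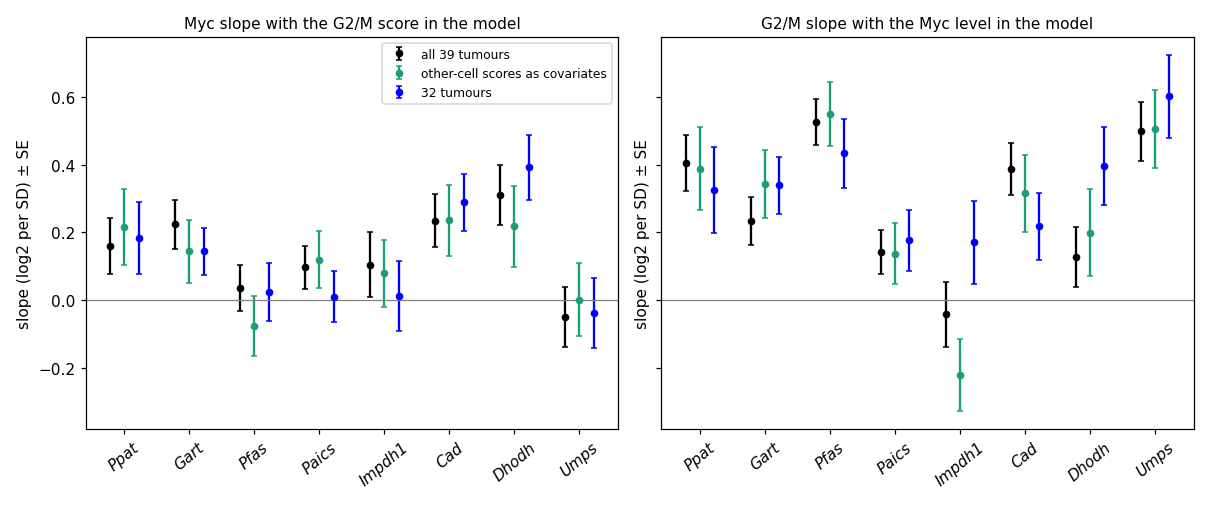
Slopes of the joint fit, along Myc given the G2/M score and along the G2/M score given Myc, in log2 per SD with bars of 1 SE. Dhodh lies highest in the panel for Myc and Pfas and Umps highest in the panel for G2/M over 39 tumours.

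Each pair of the 8 genes was correlated within its larger clusters, so the tumours entered differ between pairs. Over all 39 tumours the 21 pairs that leave out Impdh1 had r from 0.663 to 0.927. The 7 pairs with Impdh1 had r from 0.136 to 0.265 over all 39. Within the larger clusters, the 21 pairs that leave out Impdh1 had r from -0.0039 to 0.795 with a median of 0.489. Of them 13 passed (permutation adjusted p under 0.05 over the 28 pairs), and 11 by rho. The share that passes among pairs of other genes was not computed, so these counts are not read as particular to the 8 genes. Gart with Paics gave r = 0.795 over 39 tumours, but rho was 0.440 and r without the 2 farthest tumours 0.431. Ppat with Cad, the entry enzymes of the purine and pyrimidine routes, gave r = 0.667 and rho = 0.674 over 34 tumours (permutation adjusted p = 0.00028 and 0.00056), and r was 0.669 without the 2 farthest. In contrast, Cad with Umps of the same route gave r = -0.0039 (0.98) over 34 tumours, but 0.711 over all 39. By r, Impdh1 passed with 2 genes, Cad with r = 0.515 over 34 tumours (0.0044) and Ppat with r = 0.462 over 35 (0.011), and by rho also with Pfas, at 0.383 over 36 (0.045).

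Likeness to all other genes was taken as r over the 39 tumours, which the low tumours weigh on heavily, and it is given as a description. The genes most like the mean of the 8 were Fbl with r = 0.960, the methyltransferase of the nucleolus, Grwd1 with 0.955, Nat10 with 0.953, Nhp2 with 0.952 and Nup205 with 0.947, a nuclear pore protein. Cad was most like Lyar (0.962) and Paxip1 (0.946), and Ppat most like Ran (0.953), the GTPase of nuclear transport, and Lyar (0.933). Pfas was most like Atad5 (0.952) and Alyref (0.949), Gart most like Psmg1 (0.936) and Polr2h (0.932). Dhodh was most like Mrps5 (0.899), a protein of the mitochondrial ribosome, and Nat10 (0.875), and Umps most like Fkbp4 (0.899) and Tmem97 (0.899). Paics was most like Atp5g1 (0.858) and Stmn1 (0.842). Impdh1 had weaker matches, Unc5a with 0.698 and Wdr6 with 0.669.

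The other genes of nucleotide metabolism, 53 measured in 8 lists, were read in the same fits to place the 8 among them. Along Myc 26 of the 53 rose and 8 fell, against 18.7% and 17.2% of all genes. Among the remaining purine synthesis genes 4 of 5 rose: Gmps, which makes guanine nucleotides, by 0.36 ± 0.06 (SE), Atic, which closes the purine ring, by 0.33 ± 0.03, Adsl by 0.30 ± 0.05, and Adss. In pyrimidine synthesis Ctps, which makes CTP, rose by 0.49 ± 0.06 as 1 of 3. Prps1, a synthase of the phosphoribosyl donor, rose by 0.46 ± 0.05 with Prpsap1 at 0.16 ± 0.03, 2 of 4 in that list. The folate enzymes that give purines and thymidylate their one-carbon units rose in 4 of 6 genes, with Shmt2 at 0.52 ± 0.05, Mthfd1 at 0.51 ± 0.07 and Mthfd1l at 0.45 ± 0.05. Of 7 genes of deoxynucleotide synthesis 5 rose, with Dctd at 0.63 ± 0.06, Dut at 0.59 ± 0.09 and Rrm1, the large subunit of ribonucleotide reductase, at 0.38 ± 0.05. All of these slopes had limma adjusted p-values up to 2.4e-05.

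Salvage and breakdown were mixed. Of 11 salvage genes 5 rose, with Uck2, a uridine and cytidine kinase, at 0.58 ± 0.05, Adk at 0.31 ± 0.08 and Tk1 at 0.30 ± 0.10, and 2 fell, Uckl1 and Tk2. Of 5 nucleotide kinases 3 rose, among them Nme1 at 0.34 ± 0.04 and Guk1 at 0.14 ± 0.04, and Ak1 fell by 0.45 ± 0.07. Of 12 breakdown genes 5 fell: Xdh, xanthine dehydrogenase, fell by 0.72 ± 0.11, Gda, guanine deaminase, fell by 0.66 ± 0.15, Dpyd, which degrades uracil and thymine, fell by 0.54 ± 0.14, and Upp1 and Samhd1 fell as well, while Nt5c2 and Ampd2 rose. Adss, Uckl1, Tk2, Upp1, Samhd1, Nt5c2 and Ampd2 are named to complete their counts, after their values were seen. The macrophage score was above its median in tumours 1, 2, 6, 8 and 23, as given above, and with the other-cell scores as covariates 2 of the 12 breakdown genes fell, Xdh by 0.38 ± 0.10 (limma adjusted p = 0.0077) and Upp1, while Gda had -0.39 (0.32) and Dpyd -0.32 (0.34). Of the 12, 3 fell in the 32 tumours. With the other-cell scores as covariates 18 of the 53 rose with Myc and 4 fell (7.62% and 5.23% of all genes), and in the 32 tumours 11 rose and 6 fell (5.42% and 6.65%). In the 32, 1 of 5 further purine genes rose and 1 fell, and 1 of 6 one-carbon, 1 of 7 deoxynucleotide and 4 of 11 salvage genes rose. Dctd had 0.66 (limma adjusted p = 0.00013), Uck2 0.38 (0.0084), Atic 0.26 (0.0087), Prps1 0.35 (0.013), Ctps 0.28 (0.022) and Gda -0.96 (0.0096), whereas Gmps had 0.25 (0.13), Adsl 0.03 (0.86), Dut had 0.22 (0.16), Rrm1 0.14 (0.30), Mthfd1 0.13 (0.46), Shmt2 0.21 (0.10) and Xdh -0.41 (0.20).

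**Figure D5:**
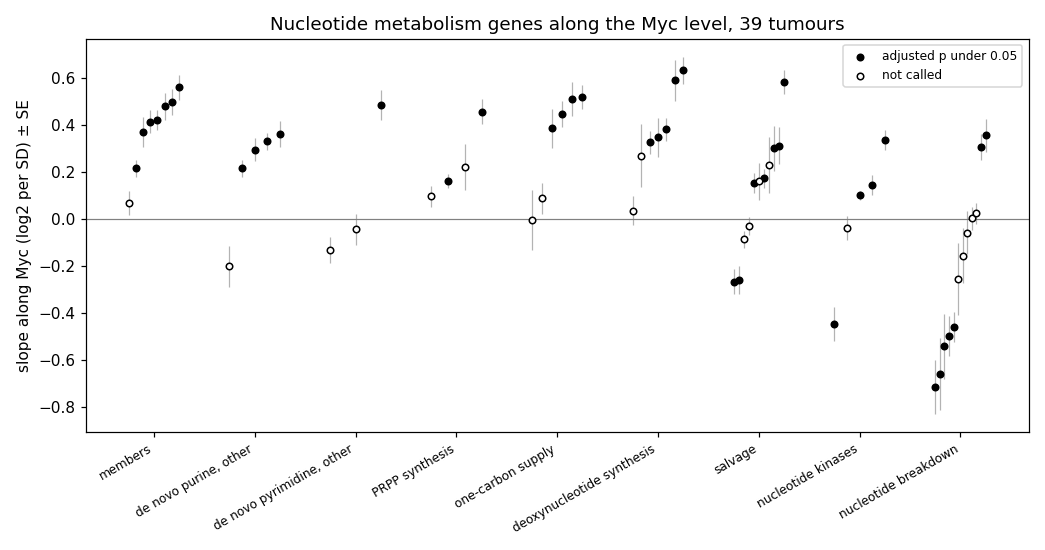
Slopes along Myc over 39 tumours, in log2 per SD of Myc, of the 8 genes and of the 8 lists of other nucleotide genes, with 1 point per gene and filled points for a limma adjusted p under 0.05. The filled points of the one-carbon and deoxynucleotide lists lie above 0, and the breakdown list has filled points on both sides of 0, with Xdh at -0.72 the lowest of its filled points.

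With the proliferation score in the fit, 4 of the 53 rose with Myc and 3 fell, against 1.89% and 2.09% of all genes. With the G2/M score given Myc 18 rose and 5 fell, against 10.2% in each direction. Among those that rose were 5 of 7 deoxynucleotide genes and 5 of 6 one-carbon genes. Examples are Tyms, thymidylate synthase, at 1.05 ± 0.19 (SE, limma adjusted p = 0.00012), Dut at 0.87 ± 0.09 (2.3e-09), Rrm2 at 0.78 ± 0.09 (3.2e-08) and Mthfd1 at 0.71 ± 0.07 (4.3e-09), chosen after their values were seen. Dctd, the steepest of these lists along Myc alone, had 0.05 ± 0.11 along G2/M given Myc (0.78). In the 32 tumours 13 of the 53 rose with G2/M given Myc and 3 fell (9.01% and 4.2% of all genes), and 1 rose and 2 fell with Myc given G2/M (1.13% and 2.58%).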

How the data were processed

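Total RNA of 39 mouse lymphomas was labelled with biotin and read on short-oligonucleotide arrays. The values are log2 expression of 45101 probe sets, and the submitters' processing notes name RMA and affy for the step by which the authors made them, without versions. Of the probe sets, 34958 name 1 gene in the platform annotation, 932 several and 9211 none. The rest was computed here with limma 3.58.1 (trended moderation, 2-sided, Benjamini-Hochberg over all genes, threshold 0.05; genes of a score left out of its own fit), mclust 6.1.1 and permutation tests of 100000 draws. A second cluster was accepted where an equal-variance mixture improved BIC by more than 10 and the smaller cluster held 3 tumours or more. The fits along a single measure were tested on simulated data, with noise drawn separately for each gene. Among 18194 genes, 86.6% of those given a slope of 0.5 along Myc were recovered, and 68.7% of those given 0.25. The joint fits were not simulated. Genes named are all members, the 2 genes most like each (5 for their mean) and up to 3 called genes per list with the largest slope along Myc. Members, lists and scores were chosen with earlier results of these data known. With Impdh2 not analysed here, 28 pairs were tested. The number of arrays limits the precision. Alternatives covered the probe set, dim genes, array centring, moderation, tumours left out and covariates.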

Additional observations from a re-analysis of the deposited data

How the results depend on the processing

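Counts of genes called moved most with the tumours entered and with other-cell covariates. Along Myc 6549 genes were called over 39 tumours, 3444 without tumours 2, 6 and 8, 2195 in the 32 tumours and 2338 with other-cell scores. Along G2/M the counts were 7293, 4725, 3829 and 3401, with 3682 in the larger cluster of 35 tumours. Along S phase they were 7393, 4641, 3481 and 3956, with 3722 in the larger cluster. For G2/M given Myc they were 3709, 2417, 2402 and 661, with 1820 in the larger cluster and 2047 with the pan B cell score as a covariate. For Myc given G2/M 723 genes were called, 464 among genes above the median level and 0 with other-cell scores in limma, where 1590 had an unadjusted p under 0.05. Of the 8 nucleotide genes, 7 rose with Myc and 4 in the 32 tumours. With Myc given G2/M 1 rose, and 2 did with the mean of all probe sets, without tumours 2, 6 and 8, in the 32, with the 3′ minus 5′ control difference as a covariate or in the larger cluster, and 0 with other-cell scores. With G2/M given Myc 5 rose, 3 with other-cell scores and 1, Pfas, in the larger cluster. Leaving out each tumour in turn gave 5936 to 6616 genes for Myc, 6647 to 7354 for G2/M, 6709 to 7492 for S phase, 331 to 922 for Myc given G2/M (331 without tumour 18, 359 without 6, 368 without 27) and 1894 to 4294 for G2/M given Myc (1894 without tumour 6). Among the 8 genes it gave 6 to 7, 7 to 7, 7 to 7, 0 to 3 and 5 to 5 rising, and 12 to 17 of the 28 pairs differing. Without tumour 6, 18, 27 or 36 the count for Myc given G2/M was 0, the call of Dhodh being lost, without tumour 1, 2, 9, 23 or 26 it was 2, and without tumour 21 it was 3. Among values called in either setting, and Paics with G2/M, these signs turned: Paics with G2/M, r = -0.0081 without the 2 farthest tumours; Ppat minus Pfas, -0.11 with the mean of all probe sets; Gart minus Dhodh, -0.20 without tumour 2 (up to 0.024 without any other single tumour); without tumours 2, 6 and 8, Gart minus Dhodh -0.28, Pfas minus Dhodh -0.25 and Paics minus Impdh1 -0.052; and in the 32, Ppat minus Dhodh -0.24, Gart minus Dhodh -0.27, Pfas minus Dhodh -0.35 and Paics minus Impdh1 -0.00043. Values that passed in neither setting also crossed 0, among them Pfas minus Dhodh and Gart minus Umps, down to -0.033 and -0.032, and Impdh1 along G2/M, down to -0.018, each without 1 tumour, and Impdh1 along both scores with other-cell scores (-0.16). The cause was not tested. The larger clusters, the pan B cell covariate and the pairs in the joint fit were chosen after seeing the data. No paired analysis was possible because the series has 1 group.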
